A study of Mus musculus with 8 samples.

Results

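The genes described here encode chromatin modifiers and remodelers, measured in mouse sympathetic ganglia that lack or have reduced ISL1, a LIM-homeodomain transcription factor. They were chosen by a rule on symbols that uses no measured value, although the rule was set with earlier results of these data known. The symbols taken were those of histone lysine methyltransferases (Kmt, Setd, Ehmt, Suv, Ezh) and demethylases (Kdm), *Suz12* and *Eed*, histone deacetylases and sirtuins, Kat acetyltransferases, Prmt arginine methyltransferases, Dnmt and Tet enzymes, Cbx and Phc subunits, Chd and Smarc remodelers, Arid and Brd factors and *Gse1*, with *Kdm5d* left out by the rule. The rule found 133 genes among 14189 genes listed at either stage. The table of embryonic day (E) 11.5 held 131 of them among 13506 genes, that of E14.5 held 132 among 13413 genes, and 130 were in both. *Prmt8* was listed at E11.5 alone and *Cbx7* and *Smarca5-ps* at E14.5 alone. The rule also took *Chd3os*, an opposite-strand neighbour of *Chd3*, and the pseudogene *Smarca5-ps*.

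DNA in the nucleus is wrapped around histones, and enzymes that add or remove methyl and acetyl groups on histones or on DNA set how accessible a gene is. Trithorax-type methyltransferases write methylation on lysine 4 of histone H3 (H3K4) at active promoters and enhancers, Polycomb repressive complex 2 (PRC2) writes H3K27 methylation at silent genes, and heterochromatin protein 1 (HP1) binds H3K9 methylation. Remodelers of the SWI/SNF, ISWI and CHD families move nucleosomes with energy from ATP. In developing neurons, several of these complexes exchange subunits as progenitors leave the cell cycle, and DNMT1, which copies DNA methylation after replication, is most abundant in dividing cells.

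Ganglia were dissected from 4 groups of embryos with 2 libraries each, 8 in all. At E11.5 to E12 the *Isl1* conditional knockout (CKO) group was Wnt1-Cre;Isl1 f/f and its control group Wnt1-Cre;Isl1+/+, both carrying the Rosa26-tdTomato reporter. Wnt1-Cre acts in the neural crest and its derivatives, which include neurons and glia of the ganglion but not blood cells, endothelium or skeletal muscle of the trunk, and tissue without tdTomato was removed at dissection. At E14.5 the hypomorphic group was *Isl1* f-neo/f-neo, with lowered *Isl1* in all cells that express it, and was compared with wildtype *Isl1*+/+ embryos. Ganglia of at least 10 embryos were pooled for a library, and sex and batch are not given in the labels.

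The deposited tables hold 1 FPKM (read fragments scaled to transcript length and to the number of mapped fragments) per gene and genotype, in which both libraries are combined. No value of a single library, no spread between libraries and no read depth could be had, so no difference below was tested against replicate error, and a difference here means only that the combined values differ. Each was expressed as the log2 ratio of mutant over control after adding 0.1 FPKM, and a gene was counted as lower or higher from 1.5-fold. These are bulk ganglia, in which fewer cells of a type and less RNA per cell cannot be told apart.

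*Isl1* itself was at 132.6 FPKM in control and 40.0 FPKM in CKO ganglia at E11.5, a log2 ratio of -1.73, and at 162 and 83.1 FPKM in wildtype and hypomorphic ganglia at E14.5, a log2 ratio of -0.96. Of 16 sympathetic neuron markers, all 16 were listed at both stages. At E11.5, 8 of them were at least 1.5-fold lower in CKO ganglia and their median log2 ratio was -0.49. Of 17 listed erythroid genes, 15 were higher there, with a summed level of 10923 FPKM in control and 69171 FPKM in CKO ganglia, 2.29% and 11.2% of all FPKM, although Hbb-y, an embryonic globin, was listed at 0 in CKO ganglia. Markers of neural crest and glia (14 of 19 higher), macrophages (11 of 12), mesenchyme (8 of 15) and skeletal muscle (5 of 11) were higher there too. Of 14 endothelial genes 3 were higher, where 18.9% of all genes were. Of 20 trophoblast and yolk sac genes 11 were listed, and all 11 were higher. Some of these, such as *Prl8a2* at 0.241 FPKM in control and 48.4 FPKM in CKO ganglia, were listed only through their CKO level. For them a CKO value above control was fixed by that listing. The same held for the erythroid *Gata1*, the macrophage *Cd14* and the endothelial *Sox17*, at 0.923, 0.496 and 0.560 FPKM in control ganglia. At E14.5 no list had more than 5 genes that were 1.5-fold higher. At 1.2-fold, 12.2% of all genes were higher there. Higher at that threshold were 13 of 14 endothelial, 13 of 19 erythroid, 6 of 12 macrophage and 6 of 14 mesenchyme genes. For trophoblast and yolk sac these were 4 of 6, for sympathetic neuron 3 of 16 and for neural crest and glia 3 of 19. Of skeletal muscle genes 0 of 10 were higher, and of pan-neuronal genes 4 of 25 were higher and 13 lower. Counted among the higher genes, *Hba-a2*, *Gata1* and *Cd14* were listed at E14.5 only through their hypomorph level, which fixed their direction.

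Promoter sequences of 5 genes are shown, those of *Dnmt1*, *Suv39h2*, *Cbx5* and *Suz12*, which were lower in CKO and higher in hypomorphic ganglia, and that of *Kmt2a*, which had the lowest ratio at E11.5. Each runs from 250 bases before to 50 bases after an annotated start in RefSeq on GRCm38.p6. Capitals mark TTTCCCGC or TTTGGCGC, 2 words of the E2F motif, which is recognised by factors that control S-phase genes. Both strands were searched for both words. *Dnmt1* has 3 annotated starts, and the window shown, chr9:20952574-20952873 on the minus strand, is that of the most downstream. Of the 3 windows it alone holds a word, which begins 33 bases after that start. *Suz12* is shown at chr11:79992856-79993155 on the plus strand with a word 219 bases before the start. The windows of *Suv39h2* (chr2:3474937-3475236), *Cbx5* (chr15:103239803-103240102, the upstream one of 2) and *Kmt2a* (chr9:44881240-44881539), all on the minus strand, hold neither word.
Dnmt1: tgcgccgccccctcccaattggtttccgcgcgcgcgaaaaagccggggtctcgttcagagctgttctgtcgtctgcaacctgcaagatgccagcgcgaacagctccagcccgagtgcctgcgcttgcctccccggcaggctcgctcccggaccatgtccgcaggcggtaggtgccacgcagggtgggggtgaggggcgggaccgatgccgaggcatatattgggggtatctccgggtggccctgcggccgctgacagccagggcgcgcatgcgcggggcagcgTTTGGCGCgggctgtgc
Suz12: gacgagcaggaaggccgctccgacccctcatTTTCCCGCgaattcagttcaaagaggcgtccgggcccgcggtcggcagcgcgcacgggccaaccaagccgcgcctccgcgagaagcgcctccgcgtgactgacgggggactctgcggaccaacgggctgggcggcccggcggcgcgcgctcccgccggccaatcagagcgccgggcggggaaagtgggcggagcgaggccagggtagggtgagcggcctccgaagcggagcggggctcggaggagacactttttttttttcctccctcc
Suv39h2: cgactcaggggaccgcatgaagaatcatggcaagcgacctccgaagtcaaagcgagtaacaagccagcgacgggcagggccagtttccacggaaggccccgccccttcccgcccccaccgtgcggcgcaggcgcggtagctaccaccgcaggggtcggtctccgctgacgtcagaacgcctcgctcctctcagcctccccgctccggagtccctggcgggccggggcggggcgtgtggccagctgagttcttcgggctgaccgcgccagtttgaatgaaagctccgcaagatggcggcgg
Cbx5: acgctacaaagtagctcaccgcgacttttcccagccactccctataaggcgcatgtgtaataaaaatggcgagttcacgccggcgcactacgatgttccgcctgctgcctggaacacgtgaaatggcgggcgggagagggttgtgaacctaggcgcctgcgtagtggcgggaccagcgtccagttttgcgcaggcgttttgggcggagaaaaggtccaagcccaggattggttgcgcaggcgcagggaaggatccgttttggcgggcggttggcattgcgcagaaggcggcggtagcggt
Kmt2a: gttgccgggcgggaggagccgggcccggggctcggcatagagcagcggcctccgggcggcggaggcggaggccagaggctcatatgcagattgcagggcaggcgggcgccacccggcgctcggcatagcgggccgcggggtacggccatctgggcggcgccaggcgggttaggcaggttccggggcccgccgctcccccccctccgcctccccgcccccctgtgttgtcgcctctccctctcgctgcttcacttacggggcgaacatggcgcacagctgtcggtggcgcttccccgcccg

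Of 106 chromatin genes of the E11.5 table with a promoter in RefSeq, 9 held a word (8.49%), against 3.43% of 10461 genes of that table and 1.80% of all 27025 genes with a promoter. A gene was counted if the window of any of its annotated starts held a word, which for *Arid1a*, *Cbx3* and *Dnmt1* was not every start. The 9 were *Arid1a*, *Brd7*, *Cbx3*, *Dnmt1*, *Ezh2*, *Sirt4*, *Smarcd1*, *Suv420h2* and *Suz12*. Their median log2 ratio was -0.55 at E11.5, against -0.25 for the 97 chromatin genes without a word, and 0.08 against 0.00 at E14.5. Among genes outside the chromatin families the medians with and without a word were -0.12 and 0.06 at E11.5. A match is a string of letters in this window and was not tested as a binding site.

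Chromatin genes were shifted downward in CKO ganglia at E11.5. Of 131, 37 (28.2%) were at least 1.5-fold lower, where 12.9% of all genes in the table were, and 3 (2.29%) were higher, where 18.9% of all genes were. The median log2 ratio was -0.30 with quartiles of -0.65 and -0.05, against a median of 0.05 with quartiles of -0.31 and 0.45 over all genes. A ratio below 0 was found for 102 chromatin genes (77.9%) and for 46.1% of all genes. The shares of all genes, 12.9% lower and 18.9% higher, stand beside every family count at 1.5-fold below. The 3 higher chromatin genes were *Smarcd3*, *Sirt2* and *Prmt8*. *Prmt8*, at 0.376 FPKM in control ganglia, was listed only through its CKO level of 1.36 FPKM. With 1 FPKM required in both genotypes, 1.54% of chromatin genes and 15.5% of all genes were higher. Summed FPKM over all genes was 476289 in control and 617263 in CKO ganglia. Rescaling without erythroid genes multiplied mutant values by 1 factor that made the summed FPKM of all non-erythroid genes equal to control. That sum was also greater in CKO ganglia, so the step lowered CKO values and did not merely take out erythroid FPKM. It moved the median of all genes from 0.05 to -0.18 and left 61 chromatin genes lower (46.6%), against 22.5% of all genes.

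**Figure D1:**
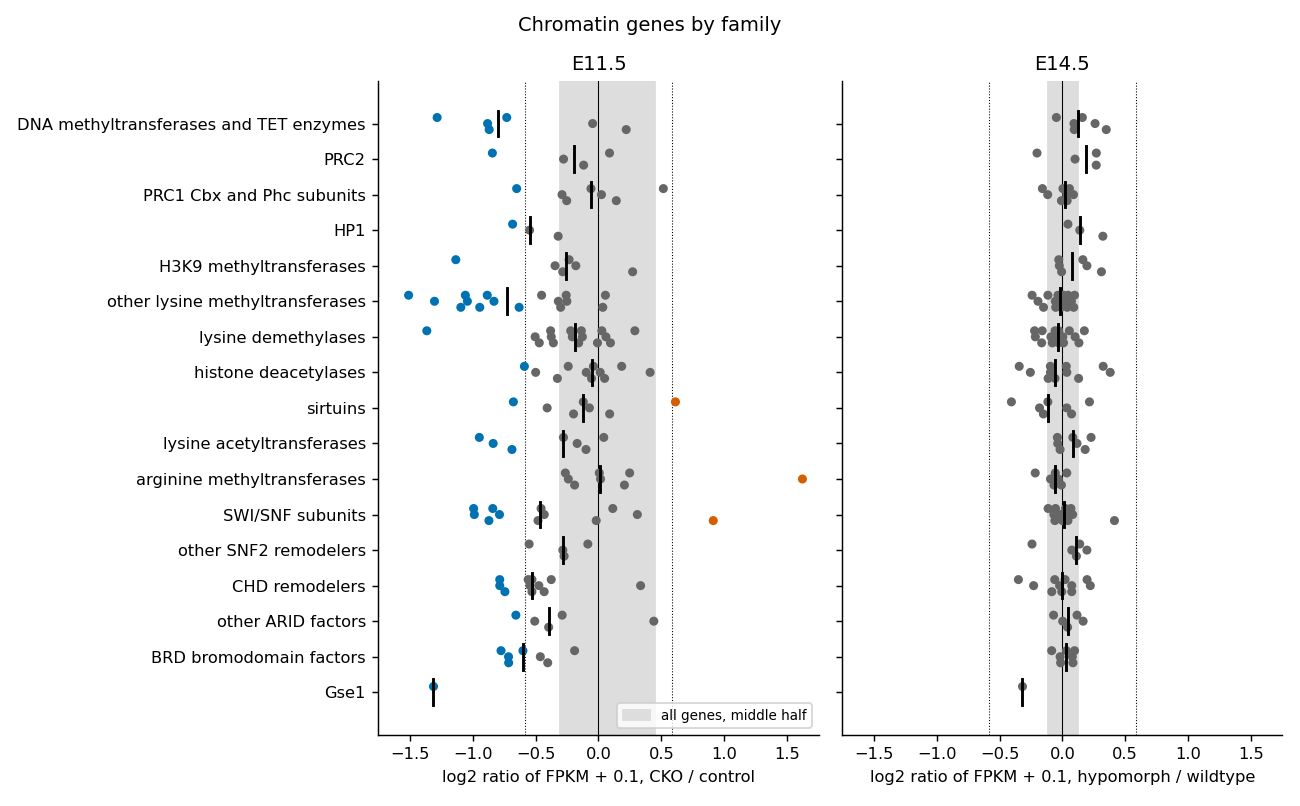
Log2 ratio of mutant over control FPKM for each chromatin gene, by family, at E11.5 (left) and E14.5 (right). Each point is 1 gene, black bars are family medians, dotted lines mark 1.5-fold, blue and orange points are past it, and the grey band spans the quartiles of all genes. At E11.5, 37 genes lie left of the lower line and 3 right of the upper one. At E14.5 none of 132 passes either line.

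The H3K4 methyltransferases were lower without exception at E11.5. All 6 members of the family that assembles COMPASS complexes, *Kmt2a*, *Kmt2b*, *Kmt2c*, *Kmt2d*, *Setd1a* and *Setd1b*, were at least 1.5-fold lower at E11.5, with a median log2 ratio of -1.02 and a range of -1.51 to -0.83. *Kmt2a* (MLL1, chr9:44611438-44689379 in mm9, the build of all gene positions from here on), which maintains transcription of Hox and other developmental genes, had 11.9 FPKM in control and 4.11 FPKM in CKO ganglia. That 2.85-fold difference was the greatest among all chromatin genes that were lower, and 2.02% of all genes had a log2 ratio as low or lower. *Kmt2d* (MLL4), an enhancer methyltransferase, had 7.52 and 2.99 FPKM, and its relative *Kmt2c* had 9.33 and 4.80 FPKM. *Kmt2b* had 12.96 and 6.97 FPKM. *Setd1a* and *Setd1b*, which add most of the trimethylation at promoters, had 12.02 and 6.71 FPKM and 7.75 and 3.58 FPKM. At E14.5 the same 6 genes had a median log2 ratio of -0.04, between -0.19 and 0.04, and *Kmt2a* was at 19.3 FPKM in wildtype and 18.8 FPKM in hypomorphic ganglia.

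Among the 16 lysine methyltransferases outside PRC2 and the H3K9 group, 9 were lower and none was higher at E11.5. Besides the 6 above these were *Kmt2e* (21.7 and 10.5 FPKM), a SET-domain protein with no clear enzyme activity, and *Setd2* and *Setd7*, which were singled out after their values had been seen. *Setd2*, which writes H3K36 trimethylation along transcribed genes, had 23.8 and 15.4 FPKM, and *Setd7*, which monomethylates H3K4 and many other proteins, had 12.8 and 6.11 FPKM. *Setd3*, an actin histidine methyltransferase despite its symbol, was the most abundant of the group at 50.3 FPKM in control and 52.2 FPKM in CKO ganglia.

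Enzymes that maintain and enzymes that remove DNA methylation were both lower at E11.5. *Dnmt1* (chr9:20711650-20757317) had 86.4 FPKM in control and 35.5 FPKM in CKO ganglia, a 2.43-fold difference. The 3 TET enzymes, which oxidise methylcytosine as a step in its removal, were all lower, with log2 ratios between -0.88 and -0.73. *Tet3* was the most abundant, at 17.04 and 9.29 FPKM, ahead of *Tet2* at 5.25 and 2.80 FPKM and *Tet1* at 4.40 and 2.62 FPKM. *Tet1* was under 1.5-fold with a pseudocount of 1 and after centring by transcript length. The de novo methyltransferases did not share this, since *Dnmt3a* was at 27.5 and 26.7 FPKM and *Dnmt3b* at 2.13 and 2.49 FPKM. At E14.5 *Dnmt1* was instead at 58.6 FPKM in wildtype and 74.7 FPKM in hypomorphic ganglia, 1.27-fold higher.

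The PRC2 core was split by subunit. *Suz12* (chr11:79806608-79847625), the scaffold of the complex, had 38.4 FPKM in control and 21.4 FPKM in CKO ganglia, 1.79-fold lower. The catalytic subunit *Ezh2* had 58.3 and 48.1 FPKM, a log2 ratio of -0.28 that did not reach 1.5-fold. *Eed*, which binds the H3K27me3 product, was at 15.4 and 16.4 FPKM, and *Ezh1*, the catalytic subunit typical of cells that no longer divide, at 2.95 and 2.71 FPKM. At E14.5 *Ezh2* was at 37.4 and 45.2 FPKM and *Suz12* at 26.7 and 32.2 FPKM in wildtype and hypomorphic ganglia, both at least 1.2-fold higher, while *Eed* was at 15.98 and 17.1 FPKM and *Ezh1* at 6.62 and 5.74 FPKM.

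The demethylases that remove the PRC2 mark differed from each other. *Kdm6b* (JMJD3, chr11:69212010-69227177) had 23.8 FPKM in control and 9.18 FPKM in CKO ganglia, 2.58-fold lower, whereas its X-linked relative *Kdm6a* (UTX) had 14.5 and 13.2 FPKM. *Kdm6b* was the 1 lower gene among 16 lysine demethylases, whose median log2 ratio was -0.18. Over all genes 12.9% were lower. *Kdm1a* (LSD1), an H3K4 demethylase and the most abundant of them, had 57.9 and 51.9 FPKM. At E14.5 *Kdm6b* was at 44.2 and 38.0 FPKM, a log2 ratio of -0.22, and no demethylase reached 1.2-fold.

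Of 7 Cbx and Phc subunits of Polycomb repressive complex 1 listed at E11.5, 1 was lower and none was higher, with a median log2 ratio of -0.06. Over all genes 12.9% were lower and 18.9% higher. *Phc2*, a polyhomeotic subunit that links complexes together and the most abundant of these, was at 50.9 FPKM in control and 48.8 FPKM in CKO ganglia. The lower gene was its paralog *Phc3*, at 3.28 and 2.05 FPKM, named after its values had been seen. *Phc3* was no longer past 1.5-fold with a pseudocount of 1 or after centring by length, and after that centring 1 of the 7 was higher and none lower.

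Of the H3K9 genes, 1 of 6 methyltransferases and 1 of 3 HP1 genes were at least 1.5-fold lower at E11.5, where 12.9% of all genes were. Below a log2 ratio of 0 were 5 of the 6 methyltransferases. At 1.2-fold 3 of the 6 were lower and 1 was higher. *Suv39h2* (chr2:3373087-3392303), which trimethylates H3K9 in pericentromeric heterochromatin, had 11.7 FPKM in control and 5.29 FPKM in CKO ganglia, 2.196-fold lower, and was the 1 called gene among 6 H3K9 methyltransferases. *Ehmt2* (G9a), which writes H3K9 dimethylation in euchromatin, was at 57.8 and 69.8 FPKM. All 3 HP1 genes were below a log2 ratio of 0 and at least 1.2-fold lower. *Cbx5* (HP1 alpha, chr15:103021975-103070247) had 111 and 68.9 FPKM and passed 1.5-fold, and *Cbx3* (HP1 gamma) had 339 and 232 FPKM, a log2 ratio of -0.55. After centring by transcript length *Cbx3* passed 1.5-fold and *Cbx5* did not. At E14.5 *Suv39h2* was at 5.14 and 6.39 FPKM and *Cbx5* at 68.2 and 85.2 FPKM, 1.24-fold and 1.25-fold higher in hypomorphic ganglia.

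Deacetylases showed little difference at E11.5, where 12.9% of all genes were at least 1.5-fold lower. The 4 class I histone deacetylases *Hdac1*, *Hdac2*, *Hdac3* and *Hdac8* had log2 ratios between -0.06 and 0.41 and none reached 1.5-fold, with a median of 0.03 that became -0.20 after rescaling without erythroid genes and -0.04 after centring by transcript length. *Hdac2*, the most abundant at 203 FPKM in control ganglia, was at 204.5 FPKM in CKO ganglia. Over 11 histone deacetylases the median was -0.06 and 1 was lower, *Hdac9*, at 4.04 and 2.65 FPKM, singled out for that after its values had been seen and under 1.5-fold with a pseudocount of 1 or centring by length. Among 7 sirtuins, the NAD-dependent deacylases, the median was -0.12 and the 1 lower gene was the low-abundance *Sirt4*, at 2.196 and 1.34 FPKM. *Sirt2*, a mainly cytoplasmic tubulin deacetylase that is abundant in myelinating glia, had 23.5 FPKM in control and 35.9 FPKM in CKO ganglia, a log2 ratio of 0.61 that was 0.38 after rescaling without erythroid genes and 0.46 after centring by length, both under 1.5-fold. Markers of neural crest and glia were higher in the same ganglia, with a median log2 ratio of 0.90 and a summed level of 493 and 955 FPKM, and their part in the *Sirt2* value was not tested.

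Among 7 Kat acetyltransferases 3 were lower and none was higher, where 12.9% and 18.9% of all genes were. *Kat2b* (PCAF) had 5.28 and 2.69 FPKM, a log2 ratio of -0.95, while its paralog *Kat2a* (GCN5) had 24.5 and 21.8 FPKM, a log2 ratio of -0.17. The others that were lower, *Kat6a* (22.3 and 12.4 FPKM) and *Kat6b* (10.4 and 6.42 FPKM), are both catalytic subunits of MOZ/MORF complexes, an observation made after their values had been seen. After centring by length *Kat6b* was under 1.5-fold. The 8 arginine methyltransferases had a median log2 ratio of 0.01, which was -0.22 after rescaling without erythroid genes and -0.002 after centring by length. *Prmt1*, the main asymmetric arginine methyltransferase and their most abundant member, had 223 and 188.5 FPKM. *Prmt8* was listed at 0.376 and 1.36 FPKM, the lowest control level of any chromatin gene at E11.5.

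The bromodomain factors, which read acetylated histones, were lower as a group. All 7 had log2 ratios below 0 with a median of -0.60, and 4 were at least 1.5-fold lower. *Brd2*, a double-bromodomain factor that couples acetylation to transcription, had 66.3 FPKM in control and 40.4 FPKM in CKO ganglia, and its relative *Brd3* had 58.8 and 34.3 FPKM. *Brd8*, a subunit of the NuA4/TIP60 acetyltransferase complex named after its values had been seen, had 24.3 and 14.7 FPKM. At E14.5 the median log2 ratio of the 7 genes was 0.03 and none reached 1.2-fold. After centring by transcript length the E11.5 ratio of *Brd2* was -0.68, still past 1.5-fold, and that of *Brd3* was -0.55, under it.

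SWI/SNF subunits, some of which replace each other in different forms of the complex, differed in their ratios. Of 12, 5 were lower at E11.5 and 1 was higher. The core subunits *Smarcc1* (BAF155) and *Smarcc2* (BAF170) had 65.8 and 33.2 FPKM and 58.9 and 29.6 FPKM, log2 ratios of -0.99 for both. The ATPase *Smarca4* (BRG1) had 84.4 FPKM in control and 47.1 FPKM in CKO ganglia, whereas the alternative ATPase *Smarca2* (BRM) had 33.1 and 35.8 FPKM. The DNA-binding subunits *Arid1a* (46.5 and 25.4 FPKM) and *Arid1b* (12.5 and 7.21 FPKM) were lower, and *Arid2*, which marks the PBAF form, was at 27.004 and 19.7 FPKM. The core subunit *Smarcb1* was level at 92.2 and 91.0 FPKM, and *Smarce1*, the most abundant, was at 109 and 80.9 FPKM. The 3 alternative BAF60 subunits spread widely, with *Smarcd1* at 41.1 and 29.4 FPKM, *Smarcd2* at 22.1 and 27.4 FPKM and *Smarcd3* (BAF60C) at 8.21 and 15.6 FPKM, a log2 ratio of 0.91. *Smarcd3* is a muscle and heart subunit as well as a neuronal one, and 5 of 11 skeletal muscle markers, with a summed level of 272 and 466 FPKM, were higher in CKO ganglia, whose part in its value was not tested.

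Further SWI/SNF subunits outside the symbol rule, a list of 15 that holds both subunits exchanged between progenitors and neurons and others such as actin and PBAF subunits, had a median log2 ratio of -0.13 at E11.5. The 1 lower gene was *Bcl7a*, at 29.3 FPKM in control and 13.2 FPKM in CKO ganglia. *Actl6a* (BAF53A) of progenitors was at 53.9 and 48.2 FPKM and *Actl6b* (BAF53B) of neurons at 18.0 and 18.3 FPKM. At E14.5 the 1 lower gene of the list was *Bcl11a*, at 11.8 FPKM in wildtype and 4.95 FPKM in hypomorphic ganglia, a log2 ratio of -1.23. These 4 genes were singled out after their values had been seen.

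Most CHD genes were lower by a modest amount at E11.5. The 11 listed include *Chd3os*, the opposite-strand neighbour of *Chd3*. Of the 11, 10 had a log2 ratio below 0 and all 10 were at least 1.2-fold lower, where 27.5% of all genes were. At 1.5-fold 3 were lower, where 12.9% of all genes were. The median over the 11 was -0.53. The remaining gene, *Chd1l*, named after its values had been seen, was 1.26-fold higher at 4.31 and 5.46 FPKM. *Chd4*, the main ATPase of the NuRD complex and the most abundant, had 125 FPKM in control and 86.8 FPKM in CKO ganglia. *Chd9* had 12.03 and 6.94 FPKM, 1.72-fold lower, and the other genes past 1.5-fold, named after their values had been seen, were *Chd2* (11.2 and 6.64 FPKM) and *Chd6* (14.7 and 8.52 FPKM). After centring by transcript length none of the 11 reached 1.5-fold, and after rescaling without erythroid genes 10 did. Among the other SNF2 ATPases *Smarca5* (SNF2H), the motor of ISWI complexes, had 66.0 and 45.0 FPKM. Of 5 further ARID factors 1 was lower, *Arid3b*, a factor of neural crest and mesoderm, at 25.4 and 16.1 FPKM.

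*Gse1* (chr8:123012766-123105290), a subunit found with LSD1 and HDAC complexes, had 39.0 FPKM in control and 15.6 FPKM in CKO ganglia, 2.495-fold lower. It was lower at E14.5 too, at 57.4 and 45.9 FPKM, a 1.25-fold difference.

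**Figure D2:**
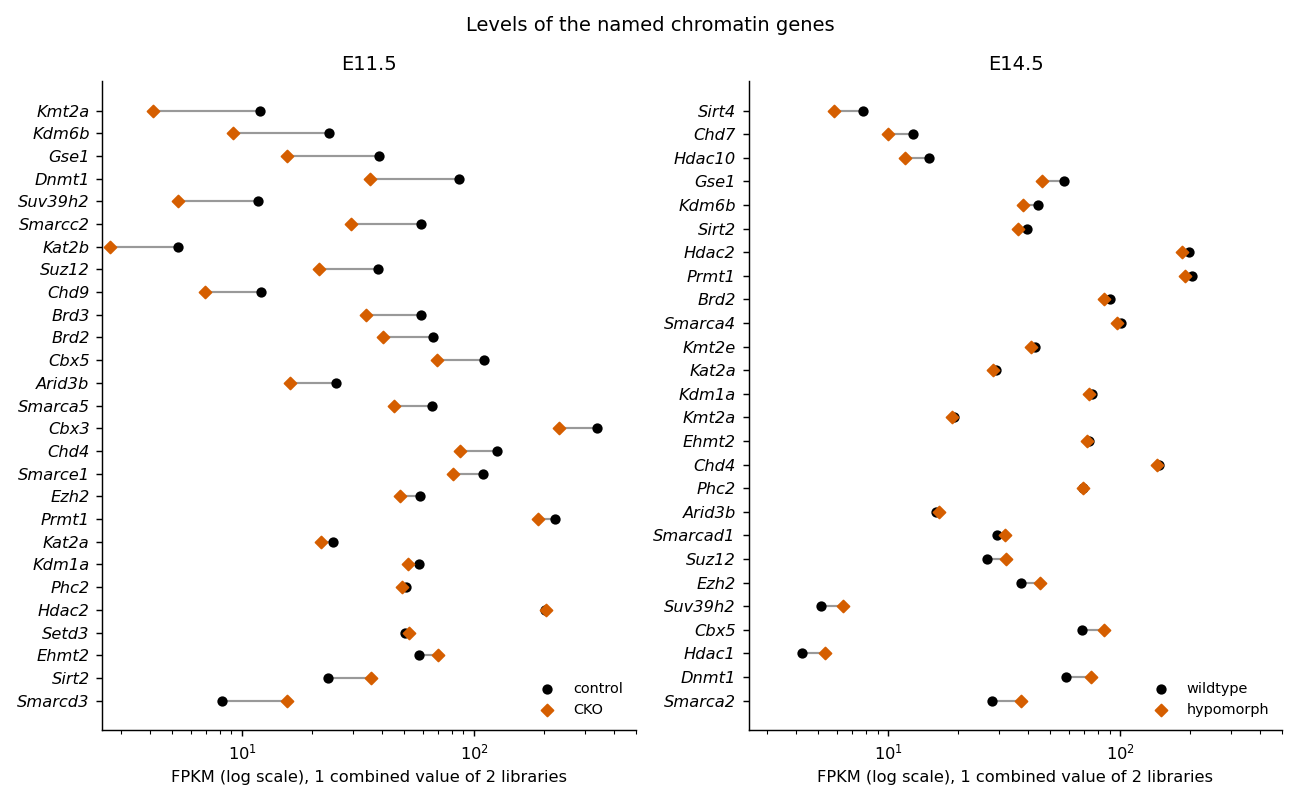
FPKM of the named chromatin genes on a log scale in control (black circles) and mutant (orange diamonds) ganglia at E11.5 (left, 27 genes) and E14.5 (right, 26 genes), ordered by log2 ratio. Each marker is the combined value of 2 libraries and has no error bar. *Kmt2a* lies between 4.11 and 11.9 FPKM at E11.5 and its markers nearly coincide at E14.5, at 18.8 and 19.3 FPKM.

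Chromatin genes are long, and at E11.5 the log2 ratio varied with transcript length over the whole table. The median longest transcript was 4653 bases for chromatin genes and 3115 bases for all genes, and 59 of the 129 chromatin genes with an annotated length were in the longest of 5 equal groups. The median log2 ratio of genes outside the chromatin families was 0.26 in the shortest group and -0.22 in the longest. In that longest group chromatin genes had a median of -0.55, in the next 3 shorter groups -0.12 (27 genes), -0.10 (21) and -0.25 (18), and in the shortest -0.08 over 4 genes. Across genes, Spearman's correlation of length with log2 ratio was -0.53 for the 129 chromatin genes and -0.29 for 12998 genes, all points sharing the same libraries. At E14.5 these values were -0.001 and 0.03.

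When each log2 ratio was taken relative to the median of its length group, 26 chromatin genes (20.2%) were lower at E11.5, against 12.3% of genes with a length, and 3 were higher. The 5 H3K4 methyltransferases with an annotated length were all among the 26, as were *Dnmt1*, *Suv39h2*, *Suz12*, *Kdm6b* and *Gse1*. The longest group ran from 4936 to 106824 bases and was centred on 1 median, which leaves any trend within it in place. *Kmt2a*, *Kmt2c* and *Kmt2d*, at 16470, 16901 and 19805 bases, belong to that group. In all 24 of the 37 were kept, 13 were lost and 2, *Cbx3* and *Brd9*, were gained. Among those lost were *Cbx5*, with a ratio of -0.46, *Brd3*, *Arid1b*, *Setd2* and the 3 CHD genes, and *Kmt2b*, which has no annotated length. Why length and ratio went together was not tested.

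**Figure D3:**
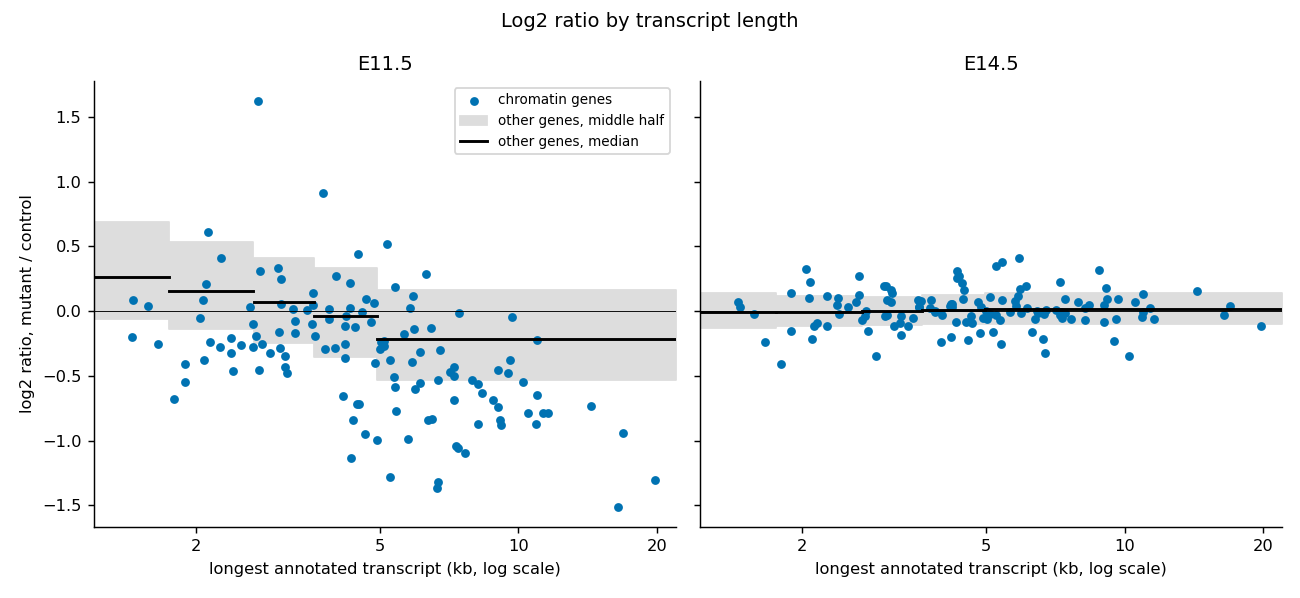
Log2 ratio of mutant over control against the longest annotated transcript in kilobases (log scale) at E11.5 (left) and E14.5 (right). Blue points are chromatin genes, black lines and grey boxes are the median and quartiles of other genes in 5 length groups, drawn from 1.2 to 22 kilobases. At E11.5 the line steps down from 0.26 to -0.22 and most long chromatin genes lie under it, and at E14.5 it stays near 0.

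Other chromatin regulators outside the symbol rule were described by counts and medians, without centring by length or rescaling. Of 85, 79 were in the E11.5 table, where 27 were lower and 3 higher, with a median log2 ratio of -0.40. Over all genes 12.9% were lower and 18.9% higher. *Uhrf1*, the partner that brings DNMT1 to newly replicated DNA, had 92.1 FPKM in control and 35.2 FPKM in CKO ganglia, and the remodeler *Hells* (LSH) had 59.9 and 28.9 FPKM. The 3 higher genes were *Mbd2*, *Sin3b* and *Pcgf5*, and *Mbd2*, a reader of DNA methylation, had 18.2 and 32.5 FPKM. At E14.5 *Uhrf1* was at 26.8 and 42.5 FPKM and *Hells* at a log2 ratio of 0.75. They were the 2 of 79 that were at least 1.5-fold higher, where 2.89% of all genes were. These genes were singled out after their values had been seen.

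A list of 30 cell cycle and replication genes was lower at E11.5, as were many chromatin genes, but higher at E14.5, where most chromatin genes were level. *Uhrf1* is in this list too. All 30 had a log2 ratio below 0 at E11.5, with a median of -0.64 and 18 at least 1.5-fold lower. At E14.5 all 30 were at least 1.2-fold higher, with a median of 0.52. *Mki67*, a marker of cycling cells, was at 97.2 and 28.5 FPKM at E11.5 and at 41.7 and 60.3 FPKM at E14.5. Pan-neuronal markers had a median log2 ratio of -0.46 at E11.5, with 10 of 25 lower. The part of cell makeup and of cycling cells in the values of chromatin genes was not tested.

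In hypomorphic ganglia at E14.5 chromatin genes were close to wildtype. None of 132 was 1.5-fold lower or higher, where 2.12% and 2.89% of all genes were. Their median log2 ratio was 0.004, against 0.003 for all genes, and they lay between -0.41 and 0.41. At 1.2-fold 4 were lower (3.03%), where 9.01% of all genes were, and 8 were higher (6.06%), where 12.2% of all genes were. The 4 were *Sirt4*, *Chd7*, *Hdac10* and *Gse1*. *Chd7*, the neural crest remodeler mutated in CHARGE syndrome, was at 12.8 FPKM in wildtype and 10.0 FPKM in hypomorphic ganglia, *Hdac10*, a polyamine deacetylase, at 14.9 and 11.8 FPKM, and *Sirt4*, a mitochondrial sirtuin, at 7.76 and 5.84 FPKM. The 8 were *Smarca2*, *Hdac9*, *Dnmt1*, *Hdac1*, *Cbx5*, *Suv39h2*, *Suz12* and *Ezh2*. *Smarca2* had the highest ratio, 0.41, and was 1.33-fold higher at 37.3 FPKM in hypomorphic ganglia. *Hdac1* was at 4.24 and 5.33 FPKM.

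Of these 8, 5 had been at least 1.5-fold lower in CKO ganglia at E11.5. They were *Dnmt1*, *Suv39h2*, *Cbx5*, *Suz12* and *Hdac9*, 3.85% of the 130 chromatin genes listed at both stages, close to the 3.03% of all 12727 such genes with this pattern. They made up 13.5% of the 37 lower genes, against 23.4% over all genes, and 62.5% of the 8 higher ones, against 26.2%. *Gse1* and *Sirt4* were lower at both stages. Across the 130 chromatin genes the log2 ratios of the stages had a Pearson correlation of -0.018 and a Spearman correlation of -0.025. The comparisons share no library but differ in allele, stage and the cells that lose ISL1, which cannot be told apart.

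**Figure D4:**
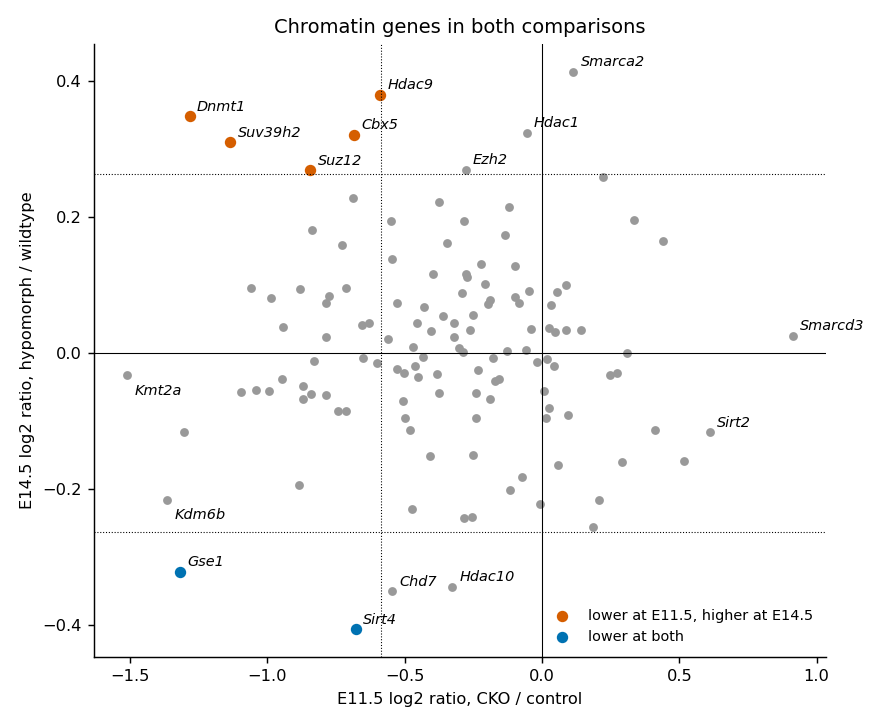
Log2 ratio at E11.5 (CKO over control, horizontal) against that at E14.5 (hypomorph over wildtype, vertical) for the 130 chromatin genes of both tables. Dotted lines mark 1.5-fold lower at E11.5 and 1.2-fold at E14.5. The 5 orange genes are lower at E11.5 and higher at E14.5, and the 2 blue genes, *Gse1* and *Sirt4*, are lower at both.

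Control ganglia of both stages had similar levels of most chromatin genes, given side by side because each table was normalized separately. Spearman's correlation of the control levels was 0.85 over 130 genes. At least 2-fold higher levels at E14.5 were found for 9 of them (6.92%) and lower levels for 7 (5.38%), against 13.6% and 6.76% of all genes listed at both stages. The exceptions at the low end were *Cbx3*, at 339 FPKM in E11.5 control and 10.3 FPKM in E14.5 wildtype ganglia, *Hdac1* at 49.2 and 4.24 FPKM and *Smarca5* at 66.0 and 16.2 FPKM. Coding transcripts of *Cbx3* and *Hdac1* matched 2 and 1 further places in the mm9 genome over at least 50% of their length at 90% identity or more, up to 97.0% and 96.6%, and no other of 129 aligned chromatin genes had such a place. Just under that identity, *Smarca5*, whose pseudogene *Smarca5-ps* was listed at 1.01 FPKM in E14.5 wildtype ganglia, matched 6 places at up to 87.3%, and *Setd3*, at 50.3 and 20.1 FPKM, matched 4 at up to 88.6%. Reads from such copies can be shared or discarded, so the levels of these 4 genes are uncertain, and the part of the copies in the difference between the tables was not tested. *Chd5*, a neuronal CHD remodeler, was the chromatin gene with the highest ratio of E14.5 to E11.5, at 2.62 and 18.1 FPKM.

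**Figure D5:**
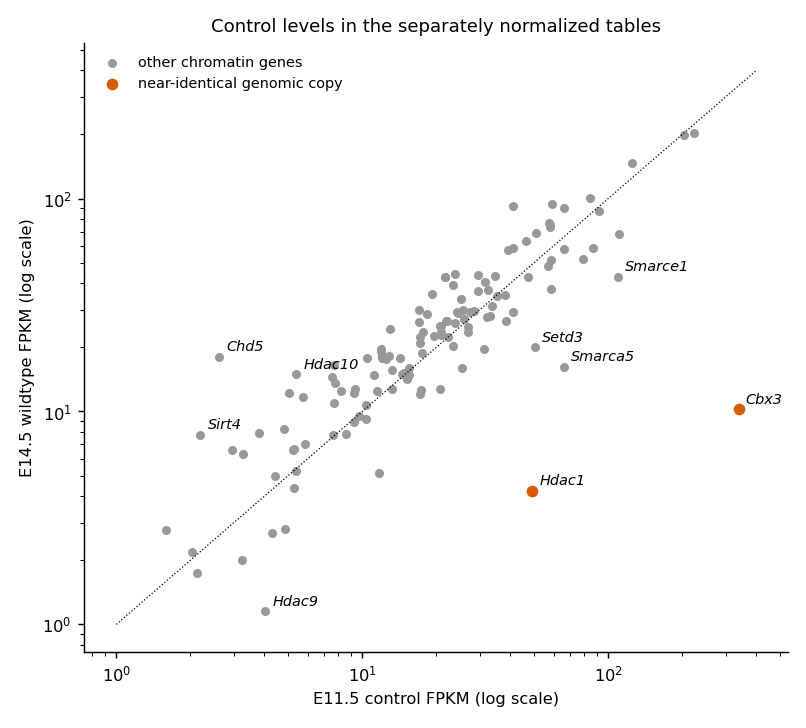
Control level of each chromatin gene at E11.5 against the wildtype level at E14.5, in FPKM on log scales, with the line of equal levels dotted. Orange points have a near-identical genomic copy. *Cbx3* and *Hdac1* lie farthest under the line, and *Chd5* farthest above it.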

How the data were processed

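RNA-seq of sympathetic ganglia was compared between genotypes at E11.5 and at E14.5. Per the study's methods, cDNA was made from polyA RNA with the SMARTer method, sequenced as paired ends, aligned to mm9 with TopHat and analysed with cuffdiff on uniquely mapped reads. The submitters' processing notes name TopHat 1.3.1, Cuffdiff 1.3.0, Bowtie and the fly build dm3 instead, and mm9 was used here because the organism is mouse. The authors deposited FPKM from cuffdiff as 1 value per genotype, so depth and spread are unknown. The deposited log2 fold changes and p-values hold the authors' comparisons and were not used.

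Log2 ratios were computed with a pseudocount of 0.1. A filter of 1 FPKM or more in either genotype removed 0 genes, because every listed gene already passed it. Members were described by counts and medians beside the same over all genes, with no test. Lengths and places came from the GENCODE annotation of mm9 (longest transcript per gene), promoters from RefSeq (107 of 133 genes matched) and copies from minimap2 2.31. Named genes were *Dnmt1*, *Kdm6b*, *Kmt2a* and *Gse1*, the lowest and highest ratio past the threshold in each family at 5 FPKM or more, the most abundant of each family, and those lower at E11.5 and higher at E14.5. Other genes were named in whole subunit sets or after values were seen. Values of 1 gene are not reported here. The members and lists were chosen with earlier results of these data known. Alternatives were other pseudocounts, filters, fold thresholds, centring and rescaling. Steps were tested on simulated data. Python 3.11.15, pandas 2.3.3, numpy 2.4.6 and matplotlib 3.10.9 were used.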

Additional observations from a re-analysis of the deposited data

Results flagged for a closer look

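*Dnmt1*, *Suv39h2*, *Cbx5* and *Suz12* stood out because their combined values differed in opposite directions at the stages. *Dnmt1* had a log2 ratio of -1.28 in CKO ganglia at E11.5 and of 0.35 in hypomorphic ganglia at E14.5. *Suv39h2* had -1.13 and 0.31, *Cbx5* had -0.68 and 0.32, and *Suz12* had -0.84 and 0.27. All 30 proliferation genes also had ratios below 0 at E11.5 and above 0 at E14.5, and the pattern was about as common among chromatin genes (5 of 130, 3.85%) as among all 12727 genes in both tables (3.03%). The difference between the stages was not tested, since neither table holds values of single libraries.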

How the results depend on the processing

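The counts depended on the fold threshold. At E11.5, 9 chromatin genes (6.87%) were lower and 1 (0.76%) was higher at 2-fold, where 4.83% and 8.42% of all genes were. At 1.2-fold 74 were lower and 10 higher, where 27.5% and 34.8% of all genes were. At E14.5, 0 and 0 at 1.5-fold became 4 and 8 at 1.2-fold. The 5 genes lower at E11.5 and higher at E14.5 became 3 with a pseudocount of 1 (*Cbx5*, *Dnmt1* and *Suv39h2*) and 2, *Dnmt1* and *Suv39h2*, both at 2-fold and after centring by length. Rescaling to equal summed FPKM of non-erythroid genes gave 61 lower chromatin genes at E11.5 in place of 37. All 37 remained among the 61, and 24 of them among the 26 of 129 after centring by length. A pseudocount of 1 lost 5 of the 37 and a minimum of 5 FPKM lost 4, *Tet1*, *Phc3*, *Hdac9* and *Sirt4*. The median of chromatin genes at E11.5 stayed below 0 under each other pseudocount, filter and scaling, at -0.54 after rescaling and -0.26 after centring by length. The other 696 values compared, of family medians and named genes, all moved by less than 1.2-fold, and 0 changed sign while past the threshold. No paired analysis was possible because the tables combine the libraries of a genotype, and for the same reason no library could be left out. Depth is unknown, so no statement on precision can be made, and low genes such as *Prmt8* and *Hdac9* are the least certain.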
